A study of Mus musculus with 8 samples.

Results

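The 10 genes described here are those of bile acid transport and sensing: the carriers Slc10a2, Slc51a and Slc51b, the ATP-driven pumps Abcc2, Abcc3 and Abcb1a, the receptors Nr1h4 and Gpbar1, and the signal genes Nr0b2 and Fgf15. They were chosen by symbol from the deposited table of 31228 genes, and all 10 were found there. Values are FPKM, that is reads scaled to exon length and library depth, so levels can be compared between genes. RNA came from C57BL/6 mice, and their age was not used here. The study set the epithelium of the extrahepatic bile duct beside that of the pancreatic duct, and organoids grown from each, to ask how alike they are. Each epithelium was 1 library, taken into Trizol after dissection and collagenase digestion. Each organoid group was 3 libraries from cultures in Matrigel at passage 3 to 4, and nothing in the labels says whether the 3 came from separate animals, so the spread between them may be technical. According to the labels, the culture medium was D/F12 with Glutamax, penicillin-streptomycin, B27 without vitamin A, N-acetylcysteine, EGF, R-Spondin-1, Noggin, FGF10 and nicotinamide, with Wnt3A-conditioned medium and Y27632 removed once hollow organoids had formed. No bile acid is named among these components.

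In the textbook account, bile acids secreted by the liver pass along the bile ducts into the gut and are taken up again in the ileum. The apical carrier Slc10a2 brings them into cells of the ileum and of the bile duct, and the Slc51a and Slc51b proteins, which work only as a complex, let them out across the basolateral membrane. Inside the cell they bind the nuclear receptor Nr1h4 (FXR), which pairs with an RXR and induces genes such as Nr0b2 (SHP), Slc51a, Slc51b and, in the ileum, the hormone Fgf15. At the cell surface they are sensed by Gpbar1 (TGR5), which raises cAMP.

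The epithelia were not pure duct cells. The 7 duct markers used for the check (Krt19, Krt7, Krt8, Epcam, Sox9, Spp1 and Cldn4) summed to 2050 FPKM in the epithelium of the bile duct, 458 FPKM in that of the pancreatic duct and 3920 to 7900 FPKM in the organoids. Acinar markers summed to 16500 FPKM in the epithelium of the bile duct and 34800 FPKM in that of the pancreatic duct, and did not exceed 8.17 FPKM in any organoid. Smooth muscle markers summed to 1690 and 3180 FPKM and fibroblast markers to 1210 and 1370 FPKM in these epithelia, and did not exceed 0.686 and 2.71 FPKM in any organoid. Endothelial markers summed to 333 and 621 FPKM in the epithelia and to between 1.08 and 1.86 FPKM in the organoids. Markers of intestinal absorptive cells summed to 536 and 62.5 FPKM in the epithelia, and all 11 were higher in bile duct than in pancreatic duct epithelium. In such bulk samples, fewer cells of a type and less RNA per cell cannot be told apart. The libraries held between 12876467 and 20828212 reads or read pairs, as rebuilt from the FPKM values, and intervals quoted below cover counting error only.

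The promoters of Slc51a and Slc51b are shown because these genes encode the subunits of 1 transporter, both near the limit of detection in organoids. The sequences are the bases before the RefSeq start (GRCm38.p6), 5′ to 3′ along the gene. Capitals mark AGGTCA, the hexamer bound by nuclear receptors, and CAAAGTCC, a core recognised by HNF4 factors, each on either strand. The Slc51a window is chr16:32487880-32488129, minus strand. The Slc51b window is the 68 bases of chr9:65422956-65423023, minus strand, that lie outside annotated exons.
Slc51a: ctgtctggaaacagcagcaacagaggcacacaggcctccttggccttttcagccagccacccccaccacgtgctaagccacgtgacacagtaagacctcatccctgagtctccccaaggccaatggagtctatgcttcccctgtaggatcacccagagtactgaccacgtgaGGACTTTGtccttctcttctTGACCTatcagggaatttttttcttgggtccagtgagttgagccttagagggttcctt
Slc51b: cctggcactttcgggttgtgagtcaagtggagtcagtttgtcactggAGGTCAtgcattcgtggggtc
RefSeq promoters were matched for 8 of the 10 genes, all but Abcc3 and Fgf15. Not every window lies at the start of the gene as measured. The Abcb1a window, chr5:8566841-8567090, lies upstream of the measured span, which begins at 8660077. The Nr1h4 window, chr10:89506659-89506908, lies inside the measured span. Within the 250 bases before the start, AGGTCA stood in the Slc51a, Slc51b, Nr1h4 and Abcc2 promoters, and in 14% of all 32851 promoters. The Abcc2 copy lies in an annotated Abcc2 exon. CAAAGTCC stood in Slc51a alone among the 8 and in 1.2% of all promoters. The IR-1 element, an inverted repeat of the hexamer, is the site of the bile acid receptor with RXR. It was searched without the outermost base of each hexamer, as an exact match with any base in the spacer. This exact match was in none of the 8 windows and in 11 of all promoters (0.0335%). Sites with mismatches and sites farther upstream were not searched for, so nothing is read from this about these genes as targets of the receptor. CAAGGTCA, which contains AGGTCA and is bound by Nr5a2, was in none of the 8 and in 1.33% of all. TATAAA was found before Nr0b2, with its first base 28 bases upstream of the start, and in 12.4% of all.

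Across the 8 libraries the genes fell into different patterns. Slc51a, Slc51b, Gpbar1, Nr0b2 and Abcb1a were measured in both epithelia and were at or near 0 in every organoid. All 6 organoids were below both epithelia for 28.8% of the 14968 genes tested. Abcc3 was the other way round, higher in all 6 organoids than in both epithelia, as were 35.1% of genes. Nr1h4, Slc10a2 and Fgf15 were found in all 6 organoids and each varied by more than 10-fold between cultures. Abcc3 made up 31.1% of the summed FPKM of the 10 genes in the epithelium of the bile duct, 9.92% in that of the pancreatic duct and 88.6% to 95.4% in cultures.

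**Figure D1:**
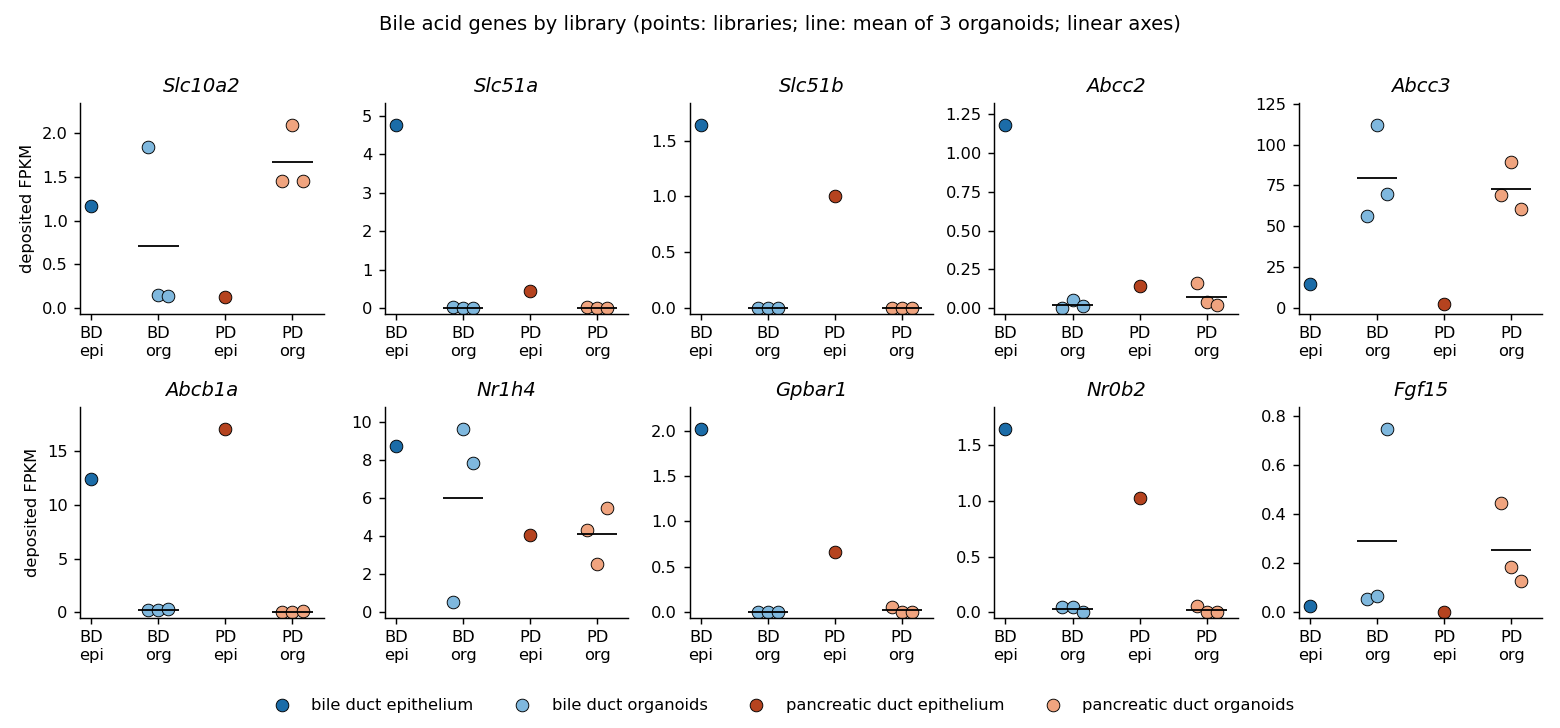
Deposited FPKM of each of the 10 genes (vertical, linear, own scale per gene) in bile duct (BD) and pancreatic duct (PD) epithelium (epi, 1 library each) and organoids (org, 3 libraries each, line at the mean). Slc51a, Slc51b, Gpbar1, Nr0b2 and Abcb1a sit at or near 0 in all 6 organoids, whereas all 6 organoids lie above both epithelia for Abcc3.

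Slc10a2 (ENSMUSG00000023073, chromosome 8, 5083219 to 5105351, minus strand, GRCm38) encodes the apical sodium-dependent uptake carrier. It had 1.16 FPKM in the epithelium of the bile duct against 0.125 FPKM in that of the pancreatic duct. Bile duct organoids 1, 2 and 3 had 1.84, 0.157 and 0.144 FPKM, and pancreatic duct organoids 1, 2 and 3 had 1.45, 2.09 and 1.45 FPKM. Bile duct organoid 1 thus lay with the pancreatic duct organoids, and bile duct organoids 2 and 3 lay near the level of pancreatic duct epithelium. Organoid 1 exceeded organoids 2 and 3 of the same group 12.2-fold, on 136 against 24 reads (95% exact counting interval 7.87 to 19.7). The mean was 0.713 ± 0.975 FPKM in bile duct and 1.67 ± 0.372 FPKM in pancreatic duct organoids (SD, n = 3 each), and the groups overlapped (two-sided exact permutation p = 0.3, where 0.1 is the smallest possible). In pancreatic duct, organoids had more Slc10a2 than epithelium in all 3 cultures, 13.3-fold over the summed reads (371 against 8 reads, counting interval 6.69 to 31.1). In bile duct the ratio of organoids to epithelium was 0.591 (counting interval 0.438 to 0.806), with organoid 1 above and organoids 2 and 3 below the epithelium. Without organoid 1 it was 0.130 (0.0775 to 0.211).

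The Slc51a and Slc51b transcripts were found in the epithelia and hardly in the organoids. Slc51a (ENSMUSG00000035699, chromosome 16, 32475522 to 32487879, minus strand) had 4.76 FPKM in the epithelium of the bile duct against 0.445 FPKM in that of the pancreatic duct. Bile duct organoid 1 had 0.0351 FPKM, pancreatic duct organoid 1 had 0.0406 FPKM, and the other 4 organoids had 0. That is 196 and 22 reads in the epithelia and 4 reads over all 6 organoids. Bile duct epithelium exceeded bile duct organoids 428-fold (counting interval 117 to 3560) and pancreatic duct epithelium exceeded pancreatic duct organoids 38.3-fold (9.42 to 336). The reads came from organoid 1 of each group, so the ratio of organoids to epithelium, 0.00234 in bile duct and 0.0261 in pancreatic duct, was 0 without that organoid, 0.00363 without bile duct organoid 2 and 0.0426 without pancreatic duct organoid 3. Of 7 tested intestinal absorptive markers 5 also fell in organoids, among them Fabp1, with 165 and 6.79 FPKM in the epithelia and at most 0.0905 FPKM in the organoids, and Vil1 rose. The list of 11 summed to 536 and 62.5 FPKM in the epithelia and to between 53.4 and 108 FPKM in the organoids, with Apoa4, Sis and Treh at 0 in all 6. Their part in the results for Slc51a, Slc51b, Abcc2 and Nr0b2 was not tested. Read numbers of Slc51a were rounded, because its exon model in GENCODE M21 differs slightly from the deposited one (largest deviation 0.12 of a read).

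Slc51b (ENSMUSG00000053862, chromosome 9, 65412714 to 65422955, minus strand) had 1.64 FPKM in the epithelium of the bile duct against 1.00 FPKM in that of the pancreatic duct and 0 reads in each of the 6 organoids. Taking a limit of 3 reads over each organoid group, it was at least 21.8-fold lower in bile duct organoids and at least 12.8-fold lower in pancreatic duct organoids than in the epithelium. With the counting error of the epithelial reads included, the lower limits were 15.7-fold and 8.74-fold. These levels rest on 15 and 11 reads, and 91 bases of its 709 exon bases overlap Rasl12 on the other strand. The subunits were not in the same proportion in the epithelia, since Slc51a exceeded Slc51b 2.90-fold in bile duct and stood at 0.443 of Slc51b in pancreatic duct.

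Of Abcc2, Abcc3 and Abcb1a, Abcc3 had the highest level in every organoid and in bile duct epithelium, and Abcb1a in pancreatic duct epithelium. Abcc3 (ENSMUSG00000020865, chromosome 11, 94343295 to 94392997, minus strand), a basolateral exporter of conjugated bile acids and other organic anions, had 15.1 FPKM in the epithelium of the bile duct against 2.70 FPKM in that of the pancreatic duct. In bile duct organoids 1, 2 and 3 it had 56.1, 112 and 70.0 FPKM, and pancreatic duct organoids 1, 2 and 3 had 69.0, 89.4 and 60.9 FPKM. Every organoid was above both epithelia, and the organoid groups overlapped, with bile duct organoid 2 the highest and bile duct organoid 1 the lowest of the 6. In a limma fit over all 8 libraries with organ as covariate, Abcc3 rose in organoids by 3.15 on the log2(scaled FPKM + 1) scale (SE 0.47, Benjamini-Hochberg adjusted p = 0.00105, higher in 6 of 6 organoids). Of the 6 genes of the 10 that could be tested in this fit, 1 rose and 3 fell (Slc51b, Nr0b2 and Abcb1a), the 3 being tested only because of their epithelial level, so nothing is read from this count. In all, 59.5% of 14968 genes passed, with 32.1% of genes higher and 27.4% lower in organoids. Abcc3 was 5.33-fold higher in organoids than in epithelium in bile duct (25802 against 1109 reads, counting interval 5.02 to 5.67) and 26.8-fold higher in pancreatic duct (22236 against 238 reads, 23.6 to 30.6). Of the 7 duct markers, 5 also rose in organoids, from sums of 2050 and 458 FPKM in the epithelia to 3920 FPKM or more, and their part in the Abcc3 result was not tested. The difference between these ratios was not tested, because each epithelium was 1 library. Without bile duct epithelium the limma estimate for Abcc3 was 4.20 on the log2 scale, and without pancreatic duct epithelium it was 2.13. Each of these fits had 1 epithelium, so no p is given.

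Abcc2 (ENSMUSG00000025194, chromosome 19, 43782192 to 43840740, plus strand), the apical pump of the same family, had 1.18 FPKM in the epithelium of the bile duct against 0.144 FPKM in that of the pancreatic duct. Bile duct organoids 1, 2 and 3 had 0, 0.0528 and 0.0127 FPKM, and pancreatic duct organoids 1, 2 and 3 had 0.160, 0.0400 and 0.0225 FPKM. All bile duct organoids were far below their epithelium, 51.6-fold over the summed reads (130 against 11 reads, counting interval 27.9 to 106). Organoid 2 held 9 of the 11 reads, and without it the ratio of organoids to epithelium was 0.00547 in place of 0.0194. In pancreatic duct the epithelium exceeded the organoids 2.13-fold (1.14 to 3.90), but organoid 1 was above the epithelium. Without it the ratio of organoids to epithelium was 0.212 (0.0879 to 0.479), against 0.469 with it. This ratio was 0.561 (0.297 to 1.08) without organoid 2 and 0.666 (0.357 to 1.27) without organoid 3, and both intervals included 1. Per length, Abcc3 exceeded Abcc2 12.8-fold in bile duct and 18.8-fold in pancreatic duct epithelium, and 432-fold or more in the 5 organoids that had an Abcc2 read.

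Abcb1a (ENSMUSG00000040584, chromosome 5, 8660077 to 8748575, plus strand) encodes a P-glycoprotein, a pump of many drugs and other hydrophobic compounds that is also typical of endothelium. It had 12.4 FPKM in the epithelium of the bile duct against 17.1 FPKM in that of the pancreatic duct. In bile duct organoids 1, 2 and 3 it had 0.174, 0.201 and 0.298 FPKM, and pancreatic duct organoids 1, 2 and 3 had 0.0118, 0.0415 and 0.0701 FPKM. Abcb1a fell in organoids by 3.90 on the log2(scaled FPKM + 1) scale (SE 0.16, limma adjusted p = 1.44e-06, lower in 6 of 6 organoids). It reached the minimum of 1 FPKM only in the epithelia, so a difference in this fit was bound to appear. The epithelium exceeded the organoids 55.3-fold in bile duct (counting interval 43.2 to 71.7) and 388-fold in pancreatic duct (226 to 730). In pancreatic duct the ratio of organoids to epithelium was 0.00258, and 0.00162 without organoid 3. All 7 endothelial markers also fell, Cldn5 was at 0 in every organoid, and all 7 were higher in pancreatic duct than in bile duct epithelium, as was Abcb1a. Their part in the Abcb1a result was not tested. The neighbouring paralog Abcb1b, with which reads may be shared, had 1.57 and 0.972 FPKM in the epithelia and 0.492 to 1.64 FPKM in the organoids, a log2 difference of -0.41 that did not pass (limma adjusted p = 0.196).

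Abcb1a was the only one of the 10 genes for which the organoid groups did not overlap. The mean was 0.224 ± 0.0650 FPKM in bile duct and 0.0411 ± 0.0291 FPKM in pancreatic duct organoids (SD, n = 3 each), on 69 and 13 reads. The two-sided exact permutation p was 0.1, the smallest this design allows. Among 12094 genes tested between the organoid groups, 6.69% did not overlap. Abcb1a was below the minimum for that test, and without a minimum its limma adjusted p was 0.986.

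**Figure D2:**
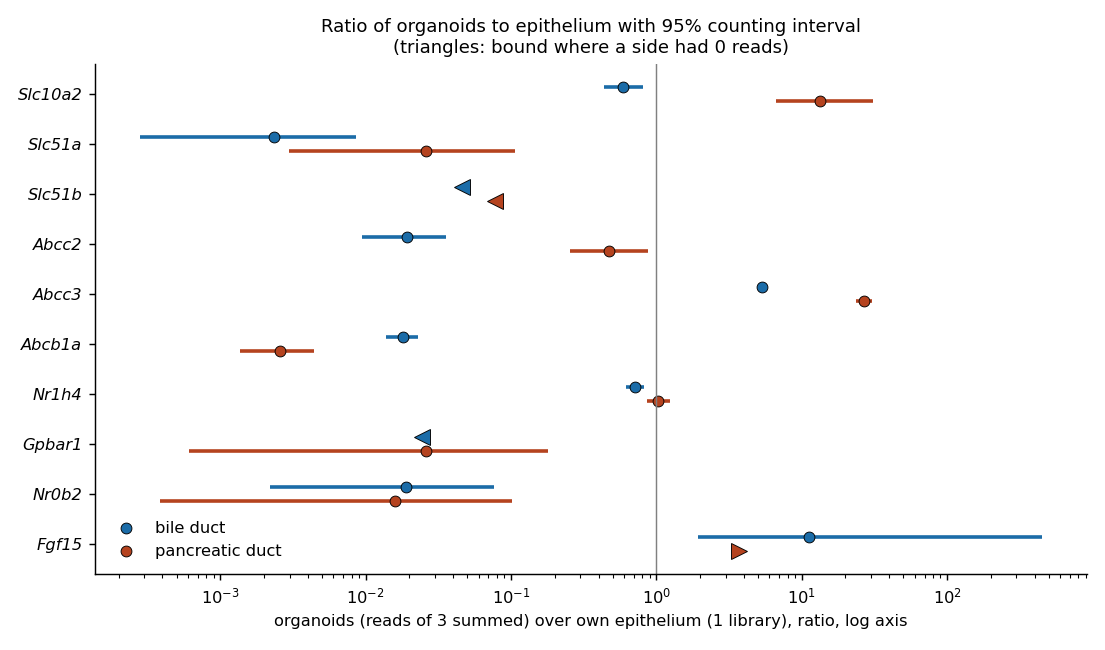
Ratio of organoids (reads of 3 cultures summed) to the epithelium of the same organ (1 library) for each gene, on a log axis, with 95% exact counting intervals as bars and triangles as bounds where a side had 0 reads. Abcc3 lies to the right of 1 in both organs (5.33 and 26.8), Slc51a, Slc51b, Gpbar1, Nr0b2 and Abcb1a lie to the left in both, and Slc10a2 lies on either side (0.591 and 13.3).

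Nr1h4 (ENSMUSG00000047638, chromosome 10, 89454234 to 89533585, minus strand), the nuclear bile acid receptor, had 8.70 FPKM in the epithelium of the bile duct against 4.05 FPKM in that of the pancreatic duct. Bile duct organoids 1, 2 and 3 had 0.536, 9.62 and 7.84 FPKM, and pancreatic duct organoids 1, 2 and 3 had 4.31, 2.52 and 5.48 FPKM. Bile duct organoids 2 and 3 were near their epithelium and organoid 1 was the lowest of all libraries, 16.3-fold below the other 2 (22 against 775 reads, counting interval 10.7 to 26.2). The group means of 6.00 ± 4.81 and 4.10 ± 1.49 FPKM (SD, n = 3 each) were not told apart by the test (two-sided exact permutation p = 0.5). Nr1h4 did not pass the test of organoids against epithelia, with a log2 difference of -0.59 (SE 0.70, limma adjusted p = 0.499). Without bile duct organoid 1 that difference was -0.16 (limma adjusted p = 0.577).

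Gpbar1 (ENSMUSG00000064272, chromosome 1, 74278550 to 74279624, plus strand), the membrane receptor, had 2.02 FPKM in the epithelium of the bile duct against 0.662 FPKM in that of the pancreatic duct. Pancreatic duct organoid 1 had 0.0604 FPKM, which is 1 read, and the other 5 organoids had 0. It was at least 40.7-fold lower in bile duct organoids than in epithelium, taking 3 reads over the group as limit (31.0-fold with the counting error of the epithelium), and the ratio of epithelium to organoids was 38.3 in pancreatic duct (11 against 1 reads, counting interval 5.57 to 1650). The inverse of that ratio, 0.0261, was 0 without organoid 1 and 0.0426 without organoid 3. Gpbar1 is also expressed by macrophages. Of 7 macrophage markers, 6 fell in organoids and Cd14 rose, the list summed to 615 and 481 FPKM in the epithelia and to between 170 and 448 FPKM in the organoids, and none was at 0 in all 6. Lyz2 and C1qa did not exceed 0.839 and 0.187 FPKM there, against 265 FPKM or more and 77.1 FPKM or more in the epithelia. Their part in the Gpbar1 result was not tested.

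Nr0b2 (ENSMUSG00000037583, chromosome 4, 133553376 to 133556536, plus strand), a repressor induced by Nr1h4, had 1.65 FPKM in the epithelium of the bile duct against 1.03 FPKM in that of the pancreatic duct. In bile duct organoids 1, 2 and 3 it had 0.0496, 0.0442 and 0 FPKM, and pancreatic duct organoids 1, 2 and 3 had 0.0573, 0 and 0 FPKM. These are 24 and 18 reads in the epithelia against 3 reads over all organoids. The ratio of epithelium to organoids was 52.4 in bile duct (counting interval 13.0 to 457) and 62.7 in pancreatic duct (9.90 to 2610). The latter rests on 1 read of organoid 1, the ratio of organoids to epithelium being 0.0160, 0 without that organoid and 0.0260 without organoid 3.

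Nr0b2 and Slc51b also fell in the fit of organoids against epithelia, each being lower in 6 of 6 organoids. On the log2(scaled FPKM + 1) scale, Nr0b2 fell by 1.24 (SE 0.10, limma adjusted p = 5.47e-05). Slc51b fell by 1.27 (SE 0.10, limma adjusted p = 5.14e-05). Like Abcb1a, both reached 1 FPKM only in the epithelia, so a difference in this fit was bound to appear. Over all genes, 1967 were tested on that footing and 1963 of these fell. Slc51a, Gpbar1, Abcc2 and Fgf15 stayed below the minimum of this fit. With no minimum, the log2 differences were -1.57 for Slc51a (limma adjusted p = 0.0197), -1.21 for Gpbar1 (limma adjusted p = 0.00204), -0.63 for Abcc2 (limma adjusted p = 0.0530) and 0.29 for Fgf15 (limma adjusted p = 0.297).

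Fgf15 (ENSMUSG00000031073, chromosome 7, 144896531 to 144900953, plus strand), the hormone that the ileum sends to the liver, had 1 read in bile duct epithelium (0.0254 FPKM) and 0 in that of the pancreatic duct. Bile duct organoids 1, 2 and 3 had 0.0551, 0.0654 and 0.747 FPKM, and pancreatic duct organoids 1, 2 and 3 had 0.446, 0.186 and 0.126 FPKM. Bile duct organoid 3 held 42 of the 88 organoid reads, and the organoid groups overlapped (two-sided exact permutation p = 1). Organoids exceeded the epithelium 11.2-fold in bile duct (49 against 1 reads, counting interval 1.92 to 452) and at least 3.73-fold in pancreatic duct, taking 3 reads in the epithelium as limit (2.89-fold with the counting error of the organoids). Without bile duct organoid 3 the ratio in bile duct was 2.38, on 7 against 1 reads, and its counting interval of 0.306 to 107 included 1. Fgf15 did not reach 1 FPKM in any library, and 787 of its 3058 exon bases overlap antisense transcripts whose reads cannot be told apart without strand.

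The genes that Nr1h4 is known to induce can be set beside its own level. The organoids with the most Nr1h4, bile duct organoids 2 and 3, had 443 and 332 reads of it, 0 reads of Slc51a and Slc51b, and 1 and 0 reads of Nr0b2. Pancreatic duct epithelium, with 144 reads of Nr1h4, had 22, 11 and 18 reads of these genes. In this bulk sample of mixed cells, the reads of these genes and of Nr1h4 cannot be assigned to the same cells. Fgf15 had 4 and 42 reads in those organoids and 0 in that epithelium. Organoids with the least Slc10a2 had the most Nr1h4, and bile duct organoid 1 and pancreatic duct organoid 2, with the most Slc10a2, had the least. Correlations among Slc10a2, Nr1h4 and Abcc3 were computed after these values were seen. Their coefficients are not given, because the 6 organoids form separate clusters of 4 and 2 in Slc10a2. That of Slc10a2 with Nr1h4 did not pass after adjustment, and no association is read from this order.

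**Figure D3:**
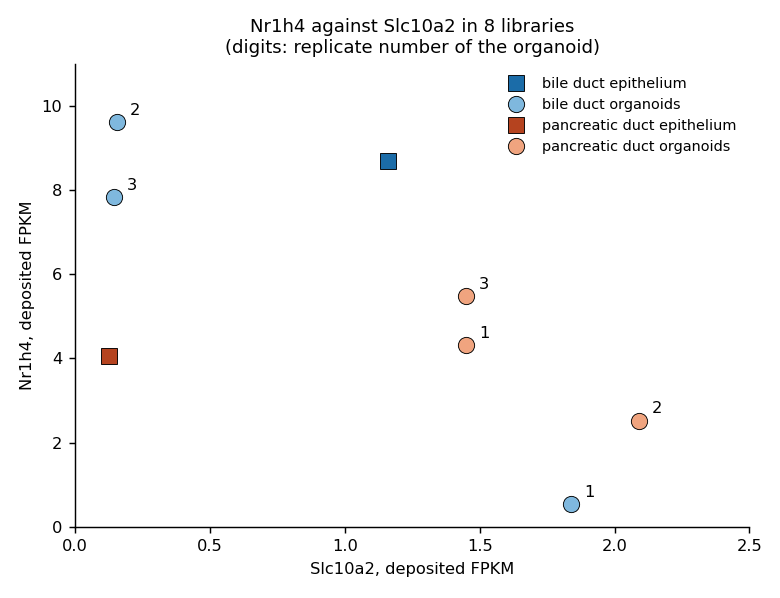
Deposited FPKM of Nr1h4 (vertical) against Slc10a2 (horizontal) in the 8 libraries, with squares for epithelia, circles for organoids and digits for replicate numbers. Bile duct organoids 2 and 3 lie at the top left (9.62 and 7.84 FPKM of Nr1h4), bile duct organoid 1 at the bottom right (0.536 FPKM), and the pancreatic duct organoids between them in Nr1h4.

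Between the epithelia, 9 genes had at least 1 FPKM in either, and 8 of them were higher in bile duct, all but Abcb1a. The same held for 48.4% of 15332 genes. Slc10a2, Slc51a, Gpbar1 and Abcc2 reached 1 FPKM only in bile duct epithelium. These could only come out higher there, so nothing is read from this count. On the log2(scaled FPKM + 1) scale, Abcc3 (2.14) and Slc51a (2.05) were at least 2-fold higher in bile duct, as were 9.01% of genes, and none of the 9 was 2-fold higher in pancreatic duct, as were 4.34%. This scale understates low genes. In ratios of reads per depth, bile duct exceeded pancreatic duct epithelium 10.7-fold for Slc51a (counting interval 6.87 to 17.5), 9.30-fold for Slc10a2 (4.44 to 22.5) and 8.21-fold for Abcc2 (5.05 to 14.1). The ratio was 5.59 for Abcc3 (4.86 to 6.46), 3.06 for Gpbar1 (1.47 to 6.80) and 2.15 for Nr1h4 (1.75 to 2.66). It was 0.725 for Abcb1a (0.666 to 0.789). The intervals for Slc51b (ratio 1.64, 0.702 to 3.94) and Nr0b2 (1.60, 0.833 to 3.13) included 1. With 1 library per organ these differences have no replicate check. Besides the 11 intestinal markers, 8 of 10 hepatocyte markers were higher in bile duct epithelium, with sums of 271 and 107 FPKM. All 7 duct markers and all 7 macrophage markers (615 and 481 FPKM) were higher there too. The part of each in these results was not tested.

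Counted against the epithelium of the same organ, 7 of 9 genes were at least 2-fold lower in bile duct organoids with all 3 cultures on 1 side (24.7% of 15333 genes), and Abcc3 was higher (14.6%). The 7 were Slc51a, Slc51b, Gpbar1, Nr1h4, Nr0b2, Abcc2 and Abcb1a. Of these, Nr1h4 depended on organoid 1 and on scaling, with a mean log2 change of -1.03 ± 1.49 (SD, n = 3), of -0.16 without that organoid and of -0.89 with FPKM as deposited, where organoid 2 lay above the epithelium. In pancreatic duct, 6 genes could be counted. Slc51b, Nr0b2 and Abcb1a were at least 2-fold lower (23.4% of 15082 genes) and Slc10a2 and Abcc3 higher (17.7%). Nr0b2 was close to the limit there, at -1.05 ± 0.05 and at -0.99 with FPKM as deposited. Many of these genes were counted only because of their epithelial level.

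The organoid groups could be compared by limma for Slc10a2, Nr1h4 and Abcc3, which reached 1 FPKM in 3 or more organoids. None passed. Bile duct minus pancreatic duct organoids gave a log2 difference of -0.76 for Slc10a2 (SE 0.40, limma adjusted p = 1.00), 0.06 for Nr1h4 (SE 0.73, limma adjusted p = 1.00) and 0.06 for Abcc3 (SE 0.27, limma adjusted p = 1.00). Of 12094 genes tested by limma, 0 (0%) had an adjusted p under 0.05 and 311 (2.57%) an unadjusted p under 0.05. The unadjusted count was 1024 of 11907 genes without bile duct organoid 1 and 156 of 11870 without bile duct organoid 2. Slc10a2 had a difference of -1.22 without bile duct organoid 1 (limma unadjusted p = 0.0011, adjusted p = 0.520). By voom on rebuilt reads 1 gene passed, which was none of the 10.

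By the Pearson correlation of log2(FPKM + 1) over the 8 libraries, among 10865 genes that reached 1 FPKM in 4 or more of them, the genes closest to Abcc3 were Camsap3 (r = 0.994), Pin4 (0.992) and Plcxd2 (0.992). Those closest to Slc10a2 were Sec31a (0.973), Zfand5 (0.967) and Gdpd1 (0.954), and those closest to Nr1h4 were C2cd2l (0.975), Stat5a (0.955) and Mlx (0.953). Gdpd1 had 12.5 FPKM in the epithelium of the bile duct against 3.96 FPKM in that of the pancreatic duct. Its level was 19.0, 5.35 and 6.59 FPKM in organoids 1, 2 and 3 from bile duct and 13.1, 15.9 and 11.1 FPKM in those from pancreatic duct, so it too was high in bile duct organoid 1 and low in organoids 2 and 3. The coefficients for Slc10a2 span the same separate clusters of libraries, and no test is drawn from them. With 8 libraries and so many genes, high coefficients are common, and they describe these libraries only.

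Other genes of bile acid handling were taken from 7 lists of 57 genes in all, of which 56 were in the table. In the fit of organoids against epithelia 33 could be tested, 9 rose (27.3%) and 11 fell (33.3%), beside 32.1% and 27.4% of all genes. In the same fit 5 of 7 duct markers rose, and all 7 endothelial, 5 smooth muscle, 6 fibroblast and 6 acinar markers fell. So did all 6 endocrine and 5 nerve and glia markers. Of those tested, 6 of 7 macrophage, 4 of 5 hepatocyte and 5 of 7 intestinal absorptive markers fell. Among these, 1 macrophage and 1 intestinal marker rose. The part of these markers in the list results was not tested. The fallen genes Slco2b1, Cyp7b1, Rxrg and Chrm3 reached 1 FPKM only in epithelia, so a difference was bound to appear for these 4. The median log2 difference over the 33 was -0.06, against 0.10 over all genes tested.

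Among 6 tested export pumps and floppases, 2 rose and 1 fell. Abcc4, a basolateral pump that can export bile acids with glutathione, rose by 1.89 on the log2 scale (SE 0.22, limma adjusted p = 0.000301), from 6.07 and 7.60 FPKM in the epithelia to between 25.5 and 44.4 FPKM in the organoids. Abcc1, another basolateral member of the family, rose by 1.65 (SE 0.13, limma adjusted p = 5.15e-05). Abcg2, an apical pump of drugs and conjugates, fell by 2.97 (SE 0.28, limma adjusted p = 0.000113). Abcc5 had a difference of 0.63 that did not pass (limma adjusted p = 0.345). Of the canalicular pumps of hepatocytes, Abcb11 did not exceed 0.0453 FPKM and Abcb4 did not exceed 0.317 FPKM in any library. Among uptake carriers, the organic anion carrier Slco2b1 fell by 3.22 on the log2 scale (SE 0.28, limma adjusted p = 8.18e-05) and Slco3a1 did not pass (difference 0.36, limma adjusted p = 0.553). The hepatocyte carrier Slc10a1 did not exceed 0.284 FPKM in any library, and Slco1a1 was listed at 0 in all.

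Of 7 tested genes of synthesis and conjugation, 1 rose and 4 fell. Cyp27a1, which starts the alternative route, fell by 2.51 (SE 0.32, limma adjusted p = 0.000521), Cyp7b1 of the same route by 2.00 (limma adjusted p = 7.43e-05) and the lipid carrier Scp2 by 0.93 (limma adjusted p = 0.000777). The peroxisomal side-chain oxidase Acox2 rose by 1.52 (SE 0.32, limma adjusted p = 0.00580). Cyp7a1, the rate-limiting enzyme of the classical route in liver, was listed at 0 in all 8 libraries.

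Of 8 tested nuclear receptors and partners, 2 rose and 3 fell. Hnf4a, a factor of liver and gut epithelium, rose by 2.75 (SE 0.53, limma adjusted p = 0.00355). The oxysterol receptor Nr1h3 fell by 2.05 (limma adjusted p = 0.000731). Rxrg, one of those 4, had epithelial levels of 2.84 and 3.38 FPKM and no value above 0 in the 6 organoids. Nr5a2, which promotes bile acid synthesis in liver, fell by 1.18 (SE 0.37, limma adjusted p = 0.0303). Rxrb, another RXR, rose by 0.88 (SE 0.14, limma adjusted p = 0.00159). Rxra, a partner of Nr1h4, had 17.5 and 17.2 FPKM in the epithelia and 13.5 to 20.6 FPKM in the organoids and did not pass (limma adjusted p = 0.109). Fgfr4, the receptor of Fgf15, rose by 1.79 (SE 0.37, limma adjusted p = 0.00494), whereas its co-receptor Klb did not exceed 0.444 FPKM in any library. Of 6 tested genes for membrane receptors and cAMP signalling, Prkaca, a catalytic subunit of the cAMP-dependent kinase, rose by 0.71 (limma adjusted p = 0.000509), Gnas rose by 0.36 (limma adjusted p = 0.0292) and the muscarinic receptor Chrm3 fell by 1.38 (limma adjusted p = 0.000121). Gnas had only 0.639 to 1.56 FPKM and reached 1 FPKM only in organoids, so its test says little, and overlapping transcripts at its locus make that value uncertain. Among 3 tested detoxification genes, Gsta3 rose by 2.28 (SE 0.59, limma adjusted p = 0.0130), Cyp3a13 fell by 1.45 (SE 0.42, limma adjusted p = 0.0216) and Cyp2b10 did not pass.

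**Figure D4:**
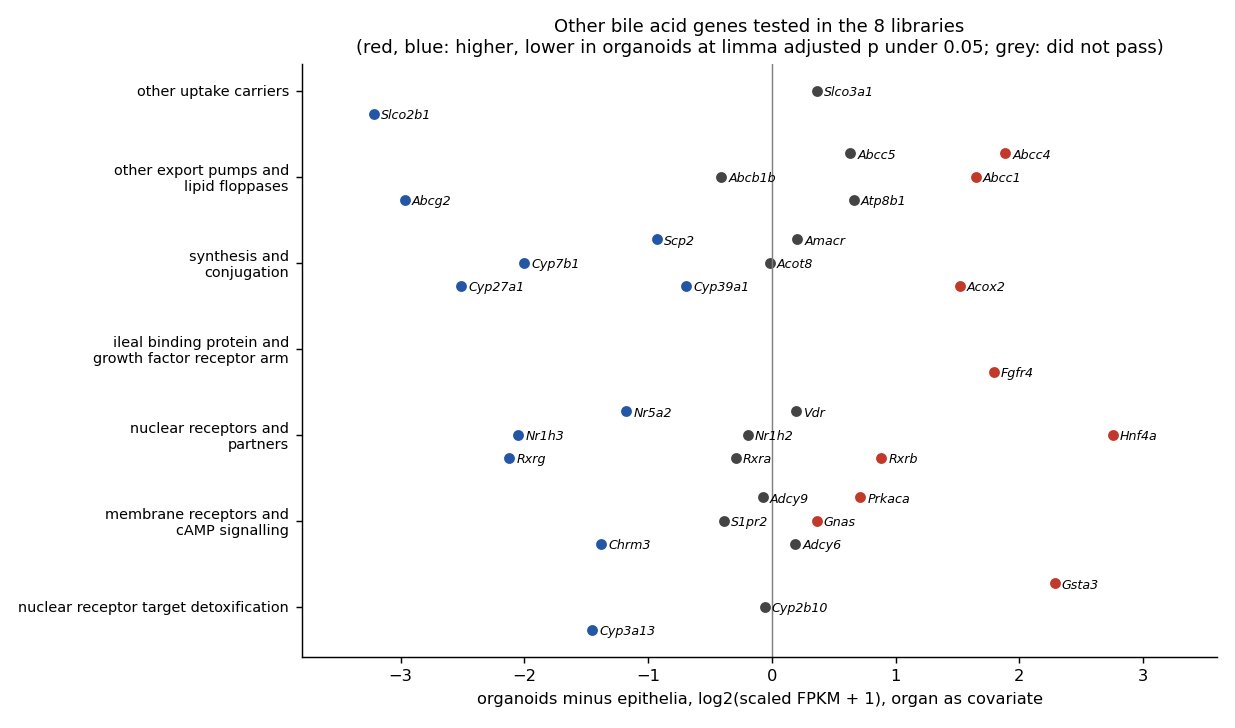
Organoids minus epithelia on the log2(scaled FPKM + 1) scale, organ as covariate, for the 33 tested genes of 7 bile acid lists (rows), with red and blue for genes higher and lower in organoids at a limma adjusted p under 0.05 and grey for genes that did not pass. The 9 red and 11 blue genes are spread over the lists, with Hnf4a farthest to the right (2.75) and Slco2b1 farthest to the left (-3.22).

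Between the epithelia, 40 listed genes had at least 1 FPKM in either. At least 2-fold higher in bile duct were 12 of these (30%), against 9.01% of all genes. In pancreatic duct 0 were 2-fold higher, against 4.34%. Of the 12, Abcg5, Abcg8, Nr1i2, Vdr, Hnf4g, Cyp3a11, Cyp2b10 and Fabp6 reached 1 FPKM only in bile duct epithelium. These could only come out higher there, so nothing is read from this count. The median log2 difference was 0.31 over the 40 and -0.02 over all genes. Intestinal absorptive markers (536 and 62.5 FPKM, 11 of 11 higher, with Apoa4, Sis and Treh at 0 in all organoids), hepatocyte markers (271 and 107 FPKM, 8 of 10 higher) and duct markers (2050 and 458 FPKM, 7 of 7 higher) moved the same way, and their part in this result was not tested. Higher in bile duct epithelium were the sterol exporters Abcg5 (6.84 and 0.429 FPKM) and Abcg8 (2.90 and 0.0690 FPKM), the xenobiotic receptor Nr1i2 (5.96 and 0.152 FPKM) and Vdr (7.37 and 0.561 FPKM). So were Hnf4a (28.1 and 3.27 FPKM), Hnf4g (6.97 and 0.664 FPKM), Cyp3a13 (17.3 and 2.67 FPKM), Gsta3 (27.3 and 5.53 FPKM), Cyp3a11 (2.78 and 0.229 FPKM), Cyp2b10 (3.20 and 0.490 FPKM) and Slco2b1 (13.3 and 4.31 FPKM). The ileal bile acid binding protein Fabp6 had 1.30 FPKM in the former and 0 in the latter. None of the listed genes passed the organoid comparison by limma, in which 27 were tested and 1 had an unadjusted p under 0.05.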

How the data were processed

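The authors deposited 1 table of FPKM values for 31228 genes in 8 libraries. No header names the unit, which was read from the values. The submitters' processing notes name Bowtie2 2.2.3, HISAT2 2.1.0, TopHat2 and HTSeq 0.6.0 without their roles, and the build is not given in the sources used here, but 28577 genes have GRCm38 coordinates identical to GENCODE M21. FPKM times exon length gave whole reads within 0.05 of a read in all libraries for 90.6% of genes, and read numbers come from this. All sample columns were used.

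FPKM were scaled by a trimmed mean of log ratios (30% and 5% trimmed), over 6 organoids for the organoid comparison and over 8 libraries otherwise. This lowered organoids against epithelia by 0.15 (bile duct) and 0.14 (pancreatic duct) on the log2 scale. log2(scaled FPKM + 1) was tested with limma 3.58.1 (R 4.3.3), with an intensity trend and Benjamini-Hochberg adjustment over all genes at 0.05. Genes needed 1 FPKM in 3 of 6 organoids, or in 2 of 8 libraries for organoids against epithelia, a fit with organ as covariate and 5 residual degrees of freedom. A count test had been planned in case the table held counts. For comparisons with 1 library on a side no p is given, and 2-fold differences were counted. Fits without an epithelium, which leave 1 library on that side, are given by their estimate only. Values per library are FPKM as deposited. Ratios compare summed reads per depth without scaling, with 95% exact intervals (Clopper-Pearson, scipy 1.17.1). The limma fits were run on simulated data with less spread between libraries than Slc10a2 and Nr1h4 showed in bile duct organoids. That run does not check the results for the 10 genes. Genes and lists were chosen with earlier results of these data known. All 10 genes are named; from the other lists, up to 4 genes per list that passed the test of organoids against epithelia, up to 4 at least 2-fold apart between epithelia, and, chosen after their values were seen, Rxrb and a few at or near 0 or not passing. For likeness, predicted genes were left out. A few genes of the lists, left out of all list counts and sums, and 1 of the motifs searched are not reported here.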

Additional observations from a re-analysis of the deposited data

How the results depend on the processing

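No gene called in the organoid comparison was the result with FPKM as deposited, median-of-ratios scaling, a pseudocount of 0.1, no minimum, a minimum of 10 FPKM, no intensity trend and the replicate number as a block (295 unadjusted calls with the block, 311 without it). Voom called 1 gene, and leaving out an organoid gave 0 to 11 calls, the 11 without pancreatic duct organoid 3. Same-numbered organoids did not deviate together (r = -0.103, -0.440 and 0.483), so the numbers were not taken as a pairing. The count for organoids against epithelia, 8902, ranged from 4301 without pancreatic duct epithelium (4757 without bile duct epithelium, fewer genes being tested in both) to 9244 without bile duct organoid 1, and was 4715 with a minimum of 10 FPKM. Lower genes made up 46.0% of the 8902 calls. The share was 40% with FPKM as deposited, 55.2% with median-of-ratios scaling, 59.8% with no minimum and 30.6% with a minimum of 10 FPKM. With a minimum of 10 FPKM the 2-fold counts were 871 in place of 2046 between epithelia, 2970 in place of 6025 for bile duct and 3204 in place of 6210 for pancreatic duct, as fewer genes were tested. Leaving out an organoid gave 5945 to 6421 in bile duct and 6070 to 6384 in pancreatic duct.

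Abcc3 passed the test of organoids against epithelia under every alternative run that kept both epithelia. Slc51b, Nr0b2 and Abcb1a were not tested without either epithelium nor, for Slc51b and Nr0b2, at 10 FPKM; elsewhere they passed, which says nothing of stability, since they reached the minimum only through the epithelia. Slc10a2, which did not pass in that fit (0.34), ranged under leaving out a library from -0.53 without pancreatic duct epithelium to 1.21 without bile duct epithelium. Between organoid groups Slc10a2 (-0.76) was -1.22 without bile duct organoid 1, -1.81 with a pseudocount of 0.1 and -2.29 by voom (unadjusted p = 0.035), with no adjusted p under 0.05. There Nr1h4 changed sign with a pseudocount of 0.1 (-0.15), by voom (-0.12) and without bile duct organoid 2 (-0.44), bile duct organoid 3 (-0.30) or pancreatic duct organoid 2 (-0.16), with the highest value, 0.93, without bile duct organoid 1. Abcc3 changed sign without bile duct organoid 2 (-0.20) or pancreatic duct organoid 3 (-0.09), with the highest value, 0.25, without bile duct organoid 1. A block on the replicate number could not cover the epithelia, which carry none. In an alternative chosen after seeing the data, reads of bile duct organoids over epithelium for Nr1h4 ranged from 0.488 without organoid 2 to 1.01 without organoid 1. Depth limits Slc51b, Gpbar1 and Nr0b2, with at most 28 reads in any library, and Fgf15, with at most 42.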
